A study of Mus musculus with 12 samples.

Results

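Interleukin-18 (IL-18) and the genes that process or bind it were followed through the brains of mice lacking IL-18 (KO) and of wild-type (WT) mice. The genes were Il18, Il18bp, Casp1, Casp4, Casp12 and Pycard, chosen by name, and every probe that the array files tie to them was used: 8 probes for 6 genes, of 41174 gene probes and 16358 named genes. Il18bp and Pycard had 2 probes each and the other genes had 1. The tissue came from male C57BL/6 mice of 12 weeks, bred as second-generation littermates from a cross of IL-18-/- with C57BL/6J mice and perfused with saline before dissection. The regions, in the order used throughout, were the olfactory bulb and prefrontal cortex, the striatum and amygdala, and the hippocampus and hypothalamus. Each region had 1 one-colour array for WT and 1 for KO, so there were 12 arrays in all. Each array held equal amounts of RNA from 5 pooled mice. The labels describe neither the targeted allele nor whether one set of mice gave all regions.

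IL-18 is a cytokine of the interleukin-1 family that is made as an inactive precursor. Inflammasomes are protein assemblies in which a sensor recruits the adaptor ASC, encoded by Pycard, which in turn gathers caspase-1, and caspase-1 cuts the precursor into the active cytokine. Caspase-11, the product of the mouse gene Casp4, senses bacterial lipopolysaccharide inside the cell and opens the non-canonical route to the same end. Outside the cell the secreted decoy IL-18BP, encoded by Il18bp, binds mature IL-18 and keeps it from its receptor. In the brain, microglia are a main site of inflammasome activity.

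Levels below are log2 of the scanner's processed signal relative to that array's 75th percentile, so that 0 is the signal at that percentile. That percentile was lowest in the striatum, at 208 and 272 intensity units in WT and KO, and highest in the KO amygdala, at 768. Between 60.8% and 81.3% of gene spots lay well above background. The labelled regions were compared with marker genes: the olfactory bulb, cortex, striatum and hippocampus lists had their highest summed levels in their own region without overlap. The amygdala list did not tell its region from the hypothalamus, at 19.2 and 27.4 against 19.8 and 16.7 in WT and KO. The amygdala WT array stood apart from its label. Across 19311 genes and transcripts it correlated more closely with the hypothalamus WT array (r = 0.996) than with the amygdala KO array (r = 0.983). The amygdala KO array was itself nearest to the hypothalamus KO array (r = 0.987). Hypothalamic markers, summed in multiples of the 75th percentile, reached 213.6 in the amygdala WT array and 15.6 in the amygdala KO array. The hypothalamus arrays reached 184.7 and 218.8. For the 8 probes, limma differences that rest on the amygdala WT array are therefore also given without that array or without the amygdala. Within a region, where each genotype had 1 array, differences are given as sizes with no test. Across the regions, KO and WT were compared with limma, region being a block, with Benjamini-Hochberg adjustment over 30969 probes. Regions are the repeated unit of that test, and pools from the same mice would make its p-values too small as evidence on genotype. The arrays of a region shared 1 slide, WT and KO in the same places each time, so slide position and genotype cannot be told apart. For regions on different slides, region and slide cannot be told apart either, and the region p-values do not cover slide differences.

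Il18 transcript signal was lower in KO than in WT in every region and was the smallest p-value of all probes tested. The 6 WT arrays read 0.71 in the olfactory bulb, 0.57 in the prefrontal cortex, 1.12 in the striatum, 0.75 in the amygdala, 0.61 in the hippocampus and 0.75 in the hypothalamus. The KO arrays read -3.45, -3.70, -3.26, -4.35, -3.12 and -3.78 in the same order. The genotypes did not overlap. The mean was 0.75 ± 0.20 (SD, n = 6 regions) in WT and -3.61 ± 0.44 (SD, n = 6 regions) in KO. The difference was -4.36 with a standard error of 0.16 (limma, adjusted p = 0.000611), which is 20.5-fold, and it was -4.21 (adjusted p = 0.00100) without the amygdala. With the normexp background correction, which adds an offset of 50 units to every spot, it was -3.13, or 8.74-fold (limma, adjusted p = 2.77e-05). An exact two-sided sign-flip permutation test over the 6 region differences gave p = 0.0312, the smallest that 6 pairs allow. By region the difference ranged from -3.73 in the hippocampus to -5.10 in the amygdala. The authors' deposited table lists Il18 in all 6 regions, with KO over WT ratios between 0.0290 in the amygdala and 0.0748 in the hippocampus.

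A signal remained at the Il18 probe in the KO arrays. The probe is printed at 10 places on each array, which gives a technical spread within an array. All 60 WT spots and 54 of the 55 KO spots in use lay well above background, after 5 KO spots had been left out as outliers by the scanner software. The lowest WT spot read 0.44 and the highest KO spot in use read -2.78. No KO spot, including those left out, exceeded -2.40, so the spots of the genotypes were fully apart. Processed intensity was 452 to 1054 in WT and 28.8 to 77.4 in KO. This was 119 to 325 times the median of the array's negative control spots in WT and 7.63 to 15.6 times in KO. The sources used here do not give whether the probe lies inside the deleted stretch of the gene, and the source of the remaining signal was not tested.

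**Figure D1:**
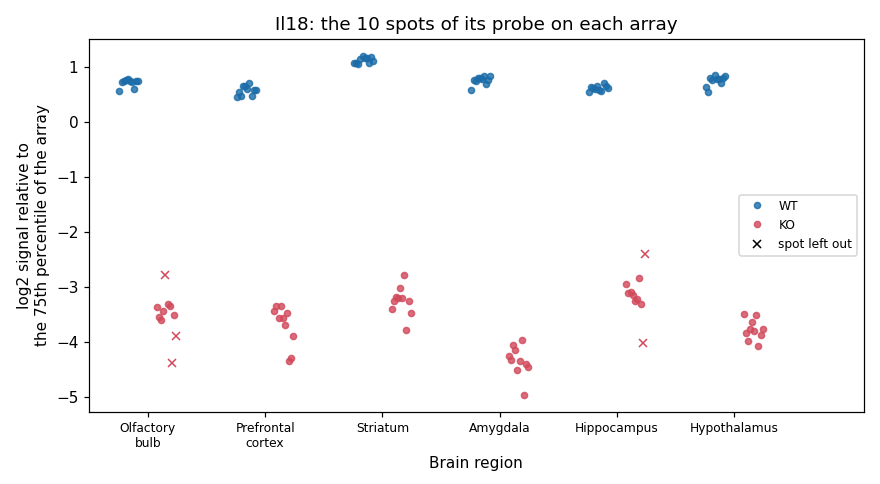
Each point is 1 of the 10 spots of the Il18 probe on 1 array, by brain region (x axis), on a log2 scale relative to the array's 75th percentile (y axis). WT spots are blue, KO spots are red and crosses are spots left out as outliers; the lowest WT spot is at 0.44 and the highest KO spot in use at -2.78.

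Among the WT arrays, Il18 was highest in the striatum, at 1.12, and the other 5 regions lay within 0.57 to 0.75. The spread between spots of one WT array was 0.050 to 0.094 (SD, n = 10 spots). This order is a description of 1 pooled array per region, with no test. The striatal WT array also had the lowest 75th percentile, and its unscaled Il18 intensity of 452 was the lowest of the WT arrays, so the order of the regions for Il18 turns on the scaling. With the arrays scaled by quantile normalization, the striatum still had the highest WT level.

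Il18 lies on chromosome 9 between Bco2 and Tex12. The 300 bases around its annotated start (250 before, 50 after) are shown as the start region of the targeted gene, from RefSeq on the GRCm38.p6 build at chr9:50554450-50554749, plus strand. Capitals mark a match to the TATA box letters TATAAA on the opposite strand, whose first base is at -175 from the start; 14.2% of 27025 mouse promoter windows of this length hold such a match on either strand. The window has 36.7% G and C, against a median of 52.7% over those windows.
Il18: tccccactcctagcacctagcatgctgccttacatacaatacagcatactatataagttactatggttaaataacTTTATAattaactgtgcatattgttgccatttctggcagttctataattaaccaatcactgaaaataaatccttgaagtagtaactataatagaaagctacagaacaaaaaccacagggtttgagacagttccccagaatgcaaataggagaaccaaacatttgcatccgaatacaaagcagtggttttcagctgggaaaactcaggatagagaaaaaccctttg

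The 2 probes of Il18bp, the gene of the decoy that binds mature IL-18, did not pass the test for genotype. Probe A_52_P577384 read -1.45, -2.04, -0.81, -1.85, -2.21 and -1.83 in the 6 WT regions, taken in order from olfactory bulb to hypothalamus. It read -1.76, -2.67, -0.99, -2.73, -2.50 and -2.10 in the KO arrays. It was lower in KO in 6 of 6 regions, by 0.18 to 0.88, while the genotypes overlapped across regions. The limma difference was -0.43 with a standard error of 0.10 (adjusted p = 0.0867), and -0.34 (adjusted p = 0.169) without the amygdala. The exact sign-flip permutation test gave the smallest possible p = 0.0312, and 8.62% of all probes tested were lower in KO in all 6 regions. With the normexp background correction the difference was -0.34 and passed the threshold (limma, adjusted p = 0.0399). Under that setting 2231 of 30969 probes passed, against 14 as reported. The other probe, A_52_P577386, was lower in KO in 5 of 6 regions and higher in the striatum. Its difference was -0.12 with a standard error of 0.079 (limma, adjusted p = 0.361), and -0.098 (adjusted p = 0.553) without the amygdala.

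Across regions, Il18bp was highest in the striatum by probe A_52_P577384. Both striatal arrays, at -0.81 and -0.99, lay above all 10 others, which ended at -1.45. In unscaled intensity they read 118 and 136 units, below the 233 and 212 of the bulb arrays, so this order turns on the scaling. With quantile normalization the striatal arrays, at -0.82 and -1.05, stayed above the bulb arrays, at -1.54 and -1.84. Against the mean of the other 5 regions the striatum was higher by 1.21 with a standard error of 0.14, or 2.31-fold (limma with genotype as covariate, adjusted p = 0.000229). It was 1.26 higher without the amygdala WT array. In the striatum, 12.3% of all probes passed the same rule (adjusted p under 0.05 and at least 2-fold) in this direction. Next came the olfactory bulb at a mean of -1.60, above the remaining regions, whose means lay between -1.97 and -2.36 with neighbouring arrays overlapping. The second probe gave a smaller striatal difference of 0.38 (limma, adjusted p = 0.0149; 0.40 without the amygdala WT array), short of 2-fold, and its striatal arrays overlapped those of the hippocampus. The probes thus disagreed by region: the first minus the second was 0.57 in the striatum and -0.85 in the hippocampus, and their levels correlated at r = 0.53 over 12 arrays that share regions. The sources used here do not give which transcripts each probe reads.

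Casp1, the protease that cuts the IL-18 precursor, was far higher in the olfactory bulb than in any other region. Its levels in the olfactory bulb were 0.63 in WT and 0.78 in KO. The other WT arrays read -1.80 in the prefrontal cortex, -2.75 in the striatum, -1.98 in the amygdala, -2.52 in the hippocampus and -1.90 in the hypothalamus. The corresponding KO arrays read -1.34, -3.03, -1.09, -2.22 and -1.57. Both bulb arrays lay above the 10 others, in processed intensity too, with 984 and 1233 units against 30.9 to 361. The bulb exceeded the mean of the other 5 regions by 2.73 with a standard error of 0.19, or 6.62-fold (limma, adjusted p = 5.00e-05), where 6.48% of all probes tested were called higher in the bulb. The value was 2.66 without the amygdala WT array.

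At the other end, the striatum was lower in Casp1 than the mean of the other regions by 1.59 (3.01-fold, limma adjusted p = 0.000264; -1.66 without the amygdala WT array), and 11.1% of all probes were called lower there. With normexp background correction the striatal difference was -0.65 (limma, adjusted p = 0.00206) and no longer reached 2-fold. The hippocampus differed by -0.96 (limma, adjusted p = 0.00789), just short of 2-fold, and by -1.03 without the amygdala WT array, where it reached it. Between the extremes, the amygdala, prefrontal cortex and hypothalamus had means of -1.53, -1.57 and -1.74 with overlapping arrays. The order was olfactory bulb, then these 3 regions, then hippocampus, then striatum. With normexp the last regions changed places, the hippocampal arrays reading -1.80 and -1.71 and the striatal arrays -1.37 and -1.67. That setting adds 50 units to every spot, more than the 30.9 and 33.2 units of the striatal arrays. The spot's median pixel minus local background, which has no offset, kept the striatum lowest. Its arrays then read -2.15 and -2.47, against -2.07 and -1.90 in the hippocampus.

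Marker genes of several cell types were read beside this result. The 14 microglial markers had a summed level of 36.7 and 38.5 in the bulb arrays, below the 46.9 to 62.1 of the others, and 0 of 14 were called higher in the bulb, with 0 at an unadjusted p under 0.05 in that direction (limma, median difference -0.51). The 6 markers of border macrophages summed to 2.59 and 3.75 in the bulb against 0.94 to 1.83 elsewhere. Of these markers 4 of 6 were called higher there, where 6.48% of all probes tested were. All sums here are of unlogged levels, so the brightest marker of a list weighs most. The 5 measured markers of neutrophils and monocytes summed to 1.97 and 3.46 in the bulb and to at most 1.04 elsewhere. Of these, only S100a9, a neutrophil calcium-binding protein, could be tested. It exceeded the mean of the other regions by 3.14 in the bulb (limma, adjusted p = 0.000251). The other markers of this list stood well above background on 1 to 3 of 12 arrays. Red blood cell markers summed to 5.61 and 10.3 in the bulb against 1.86 to 5.07. Meningeal markers summed to 19.8 and 25.0 against 8.24 to 22.1, with 4 of 7 called higher. Their part in the Casp1 result was not tested, and in such tissue RNA more cells of a type and more RNA per cell cannot be told apart.

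For genotype, Casp1 was higher in KO in 5 of 6 regions and did not pass the test. The differences were 0.15 in the olfactory bulb, 0.46 in the prefrontal cortex, -0.28 in the striatum, 0.89 in the amygdala, 0.30 in the hippocampus and 0.33 in the hypothalamus. The limma difference was 0.31 with a standard error of 0.14 (adjusted p = 0.216), and the exact sign-flip permutation test gave p = 0.0938. Without the amygdala it was 0.19 (adjusted p = 0.384). The amygdala difference, 1.84 as a ratio in the authors' deposited table, rests on the WT array that resembles hypothalamus, and it passed 2-fold, at 1.10, when arrays were scaled by their medians. The 14 microglial markers had a median KO minus WT difference of 0.16, with 11 higher and 3 lower and 0 past the threshold (limma). At an unadjusted limma p under 0.05 stood 8 of the 14, most of them higher in KO, against 25.2% of all probes. The part of these markers in the Casp1 values was not tested.

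**Figure D2:**
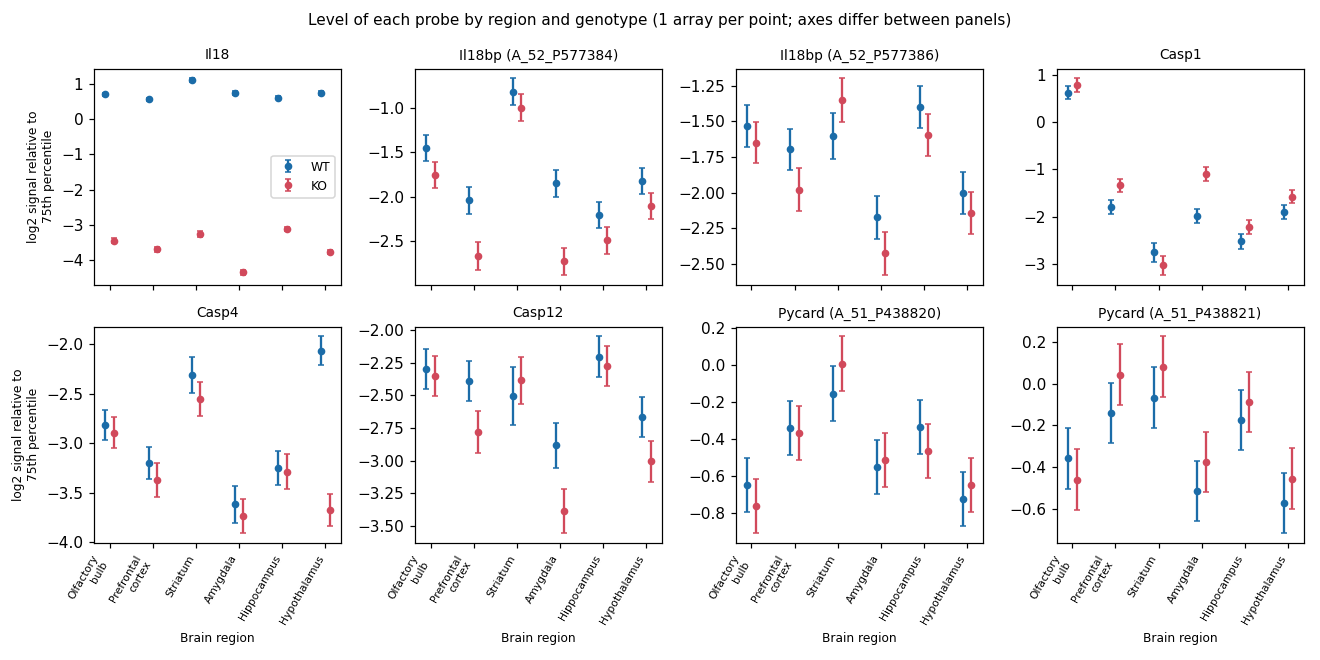
Each panel shows 1 probe, with brain region on the x axis and the log2 level relative to the array's 75th percentile on the y axis (axes differ between panels). Points are single arrays of 5 pooled mice, blue for WT and red for KO, and bars are the scanner's spot error; Casp1 reaches 0.63 and 0.78 in the olfactory bulb, and Casp4 in the hypothalamus reads -2.07 in WT and -3.68 in KO.

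Casp4, the gene of the lipopolysaccharide-sensing caspase-11, showed its widest genotype difference in the hypothalamus. Its WT arrays read -2.82, -3.20, -2.31, -3.62, -3.25 and -2.07 from olfactory bulb to hypothalamus in the same order. Its KO arrays read -2.89, -3.37, -2.55, -3.74, -3.29 and -3.68. In processed signal the WT hypothalamus array was the highest of the 12, and the KO hypothalamus array was among the lowest. The difference there was -1.61 with a spot error of 0.22, or 3.05-fold lower in KO. It compares 1 spot on each array, since the Casp4 probe is printed at 1 place. The authors' deposited log2 ratio of -1.61 comes from the same arrays and is no second reading. In the other 5 regions KO was lower by 0.038 to 0.24. Of all probes above background on both hypothalamus arrays, 0.608% were at least 2-fold lower in KO. The size depended on how the spot was read, at -0.81 with normexp and -1.07 when the spot's median pixel replaced the processed signal. Both alternatives take the median pixel and also treat the background in another way. Normexp here also adds an offset of 50 units to every spot, which narrows ratios between dim spots. The Casp4 spots read 149 and 46.6 units in the WT and KO hypothalamus. How much each change moved the size was not tested. The WT hypothalamus then lay below the WT striatum, at -1.78 against -1.26 with normexp and at -2.02 against -1.92 with the median pixel. The amygdala WT array, which resembles the hypothalamus WT array across genes, read -3.62.

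Over the regions together, the Casp4 difference was -0.38 with a standard error of 0.21 (limma, adjusted p = 0.310), and KO was lower in 6 of 6 regions (exact sign-flip permutation p = 0.0312). Without the hypothalamus it was -0.13 (adjusted p = 0.245), and without the amygdala -0.43 (adjusted p = 0.376). Among regions, the striatum was higher by 0.76 (limma, adjusted p = 0.0484), short of 2-fold, and the adjusted p was 0.0778 without the amygdala WT array. In unscaled intensity the striatal arrays, at 42.0 and 46.3 units, lay below all others, so the striatal result turns on the scaling. The amygdala had the lowest mean level, -3.68.

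Casp12, a caspase associated with the endoplasmic reticulum, did not pass the test for genotype. WT arrays ranged from -2.88 in the amygdala through a median of -2.45 to -2.20 in the hippocampus. KO arrays ranged from -3.38 in the amygdala through a median of -2.58 to -2.27 in the hippocampus. The genotypes overlapped, and KO was lower in 5 of 6 regions, by up to 0.50 in the amygdala. The limma difference was -0.21 with a standard error of 0.092 (adjusted p = 0.217, exact sign-flip permutation p = 0.125), and -0.15 (adjusted p = 0.398) without the amygdala. By region, the amygdala was lower than the mean of the others by 0.65 (limma, adjusted p = 0.00664) and the hippocampus was higher by 0.43 (limma, adjusted p = 0.0351), neither reaching 2-fold. Without the amygdala WT array these differences were -0.83 (limma, adjusted p = 0.0135) and 0.46 (limma, adjusted p = 0.0235). Both hippocampal arrays lay above the 10 others in scaled processed signal. In unscaled intensity they read 120 and 138 units, against 129 and 140 in the olfactory bulb, so this order turns on the scaling. With normexp and its offset of 50 units the hippocampal arrays, at -1.89 and -1.95, lay below the striatal arrays, at -1.51 and -1.59. With the median pixel and no offset they read -2.18 and -2.19, against -2.47 and -2.31 in the striatum.

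Casp1, Casp4 and Casp12 are neighbours on chromosome 9, in that order, between Gria4 and Pdgfd, with 465 protein-coding genes between Casp12 and Il18. Their regional orders differed: the highest regional mean was in the olfactory bulb for Casp1, in the striatum for Casp4 and in the hippocampus for Casp12. With normexp and its offset of 50 units it was in the striatum for Casp12. Over the 12 arrays the levels of Casp1 correlated with those of Casp4 at r = -0.11 and with those of Casp12 at r = -0.02, and those of Casp4 with those of Casp12 at r = 0.49. Their start regions are shown because the genes are adjacent and Casp1 had another regional pattern than its neighbours. The windows are RefSeq's on GRCm38.p6, plus strand, 5' to 3': Casp1 at chr9:5298267-5298566, Casp4 at chr9:5308599-5308898 and Casp12 at chr9:5345226-5345525. RefSeq lists 2 windows for Casp4, of which 1 is printed. Capitals mark matches on either strand to the interferon-type element GAS (TTCNNNGAA, in 8.47% of all promoter windows), the interferon response element ISRE (GAAA, any 2 bases, then GAAA, in 3.49%), the NF-kB element (GGG, any 2 bases, then TTCCC, in 1.66%) or TATAAA.
Casp1: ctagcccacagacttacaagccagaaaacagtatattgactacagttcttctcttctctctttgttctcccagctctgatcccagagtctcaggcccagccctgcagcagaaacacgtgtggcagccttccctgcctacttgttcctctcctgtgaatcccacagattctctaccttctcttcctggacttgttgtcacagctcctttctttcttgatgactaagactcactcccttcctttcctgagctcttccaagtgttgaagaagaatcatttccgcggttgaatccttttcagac
Casp4: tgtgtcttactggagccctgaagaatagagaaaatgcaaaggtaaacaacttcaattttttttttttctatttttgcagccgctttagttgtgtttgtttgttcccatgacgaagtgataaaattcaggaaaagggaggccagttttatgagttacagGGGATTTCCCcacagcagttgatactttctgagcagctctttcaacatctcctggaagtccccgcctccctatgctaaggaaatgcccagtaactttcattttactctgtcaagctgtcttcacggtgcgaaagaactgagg
Casp12: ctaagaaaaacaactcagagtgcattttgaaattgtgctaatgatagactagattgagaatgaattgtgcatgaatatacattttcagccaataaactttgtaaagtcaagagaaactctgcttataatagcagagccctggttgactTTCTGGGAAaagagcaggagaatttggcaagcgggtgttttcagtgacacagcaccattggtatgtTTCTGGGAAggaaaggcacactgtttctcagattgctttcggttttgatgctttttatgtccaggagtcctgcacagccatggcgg
The Casp4 window holds an NF-kB match, GGGATTTCCC, whose first base is at -92 from the start. The Casp12 window holds the GAS match TTCTGGGAA at -102 and at -36, and the Casp1 window holds none of these letters. Such matches describe letters in a window and nothing about binding.

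Pycard, the gene of the ASC adaptor, did not pass the test for genotype by either probe. By probe A_51_P438820, WT arrays ran from -0.72 through a median of -0.44 to -0.15, and KO arrays from -0.76 through a median of -0.49 to 0.0088. The KO minus WT difference was 0.00037 with a standard error of 0.058 (limma, adjusted p = 0.998), with 3 regions higher and 3 lower, and -0.0070 (adjusted p = 0.961) without the amygdala. By probe A_51_P438821 it was 0.096 with a standard error of 0.055 (limma, adjusted p = 0.316), higher in 5 of 6 regions, and 0.087 (adjusted p = 0.453) without the amygdala. The probes followed each other over the 12 arrays (r = 0.86). Both were highest on average in the striatum, which exceeded the mean of the other regions by 0.46 (limma, adjusted p = 0.00149) and 0.32 (limma, adjusted p = 0.00720), below 2-fold, and by 0.46 and 0.31 without the amygdala WT array. With median scaling the second probe was highest on average in the prefrontal cortex. The striatal arrays stood clear of the other 10 for the first probe and overlapped the prefrontal cortex for the second. In unscaled intensity they lay below the other 10 for both probes, so the striatal result turns on the scaling. They read 187 and 273 units against 379 or more for the first probe, and 199 and 288 against 420 or more for the second.

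Read together, 1 of the 8 probes, that of Il18, passed the genotype test, where 0.0452% of all probes tested passed (14 of 30969), or 0.0323% counting those lower in KO. At an unadjusted p under 0.05, Il18 and probe A_52_P577384 of Il18bp passed, beside 25.2% of all probes. Those probes and Casp4 were lower in KO in 6 of 6 regions. None was higher in all 6, as 9.79% of all probes were, and 18.4% of all probes differed 1 way in all 6. Within regions, 7 of 48 differences reached 2-fold, namely the 6 of Il18 and that of Casp4 in the hypothalamus. The share of all probes doing so in either direction was 0.899%, 4.15%, 1.58%, 6.17%, 1.86% and 0.941% from olfactory bulb to hypothalamus in order, and for lower in KO alone 0.605%, 3%, 0.816%, 5.5%, 1.1% and 0.608%. The amygdala, whose arrays differ most from each other, also gave the widest differences for Il18, A_52_P577384, Casp1 and Casp12.

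**Figure D3:**
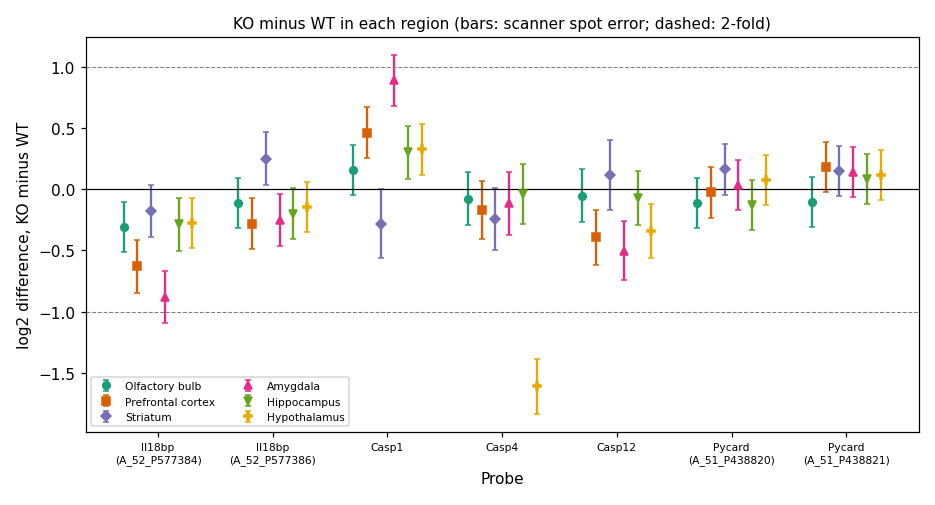
Points are KO minus WT log2 differences in each brain region (y axis) for the 7 probes other than that of Il18 (x axis), with the scanner's spot error as bars and dashed lines at 2-fold. The Casp4 hypothalamus point, at -1.61, is the only one beyond a dashed line, and the amygdala point of Casp1 is at 0.89.

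Across regions, 3 of the 42 comparisons of the 7 probes other than Il18 were called: Casp1 higher in the olfactory bulb and lower in the striatum, and Il18bp higher in the striatum by 1 of its probes. Of all probes tested, 6.48% were called higher and 5.43% lower in the olfactory bulb, 2.76% and 2.84% in the prefrontal cortex, and 12.3% and 11.1% in the striatum. The shares were 1.71% and 4.65% in the amygdala, 4.72% and 2.21% in the hippocampus, and 1.8% and 1.48% in the hypothalamus. The levels of Il18bp probe A_52_P577386 and of Casp12 ran most alike among members, at r = 0.94 over 12 arrays. Casp1 and Pycard probe A_51_P438820 ran most opposite, at r = -0.72. These correlations describe arrays that share regions and pools.

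**Figure D4:**
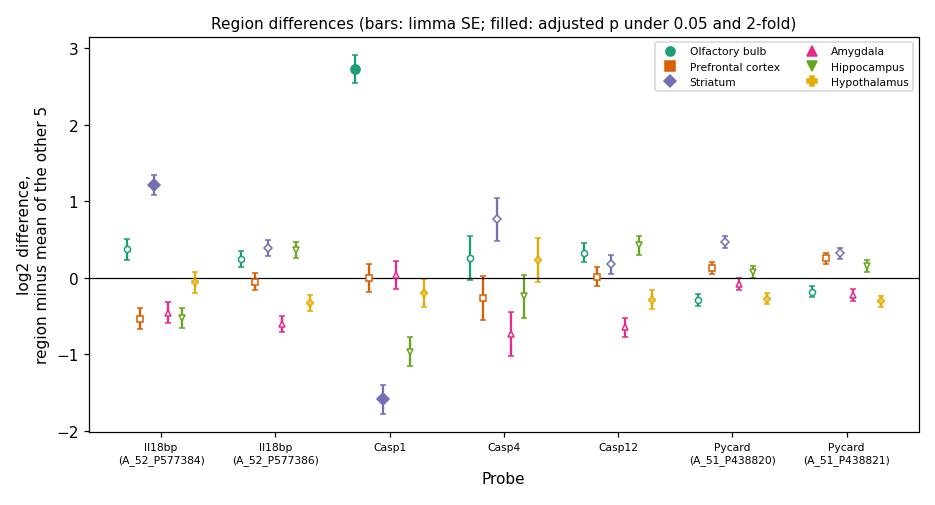
Points are the log2 difference of each brain region from the mean of the other 5 (y axis) for 7 probes (x axis), with limma standard errors as bars; filled points have an adjusted p under 0.05 and at least 2-fold. The filled points are Casp1 in the olfactory bulb (2.73) and striatum (-1.59) and Il18bp in the striatum (1.21).

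Genes around these members in the IL-18 pathway showed no genotype call. Of 52 listed genes, 47 were on the array by name and 35 could be tested, of which 14 were higher and 21 lower in KO and 0 passed (limma); 5 had an unadjusted p under 0.05, a rule that 25.2% of all probes met. Their median difference was -0.02, as it was over all genes and transcripts. The receptor chains Il18r1 and Il18rap stood well above background on 0 arrays, as did the sensors Nlrc4 and Aim2, the proteases Gzmb and Mep1b and the antagonist Il1rn. Il1b, the related inflammasome substrate, was above background on 2 arrays and Il1a on 1. Nek7, a kinase that binds and activates NLRP3, had the largest difference of the activation genes and was lower in KO in 6 of 6 regions. It differed by -0.45 with a standard error of 0.065 (limma, adjusted p = 0.0761). It passed under 3 other settings, with limma adjusted p between 0.0359 and 0.0445. Under those settings 810 to 2231 of all probes passed, against 14 as reported.

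The remaining parts of the pathway gave these widest differences, none past the threshold. Of the sensors it was Nlrp1a at 0.48 (limma, adjusted p = 0.147). Of the other proteases it was Casp8 at -0.07, and of the inhibitors Sigirr, a receptor that damps signalling of this family, at -0.14. In signal transduction it was Irak3, a negative regulator, at 0.38. Of the sister cytokines it was the alarmin Il33 at 0.05, and of the genes induced by IL-18 it was the transcription factor Tbx21 at -0.22. By region, Tbx21, also a marker of bulb projection neurons, was higher in the olfactory bulb by 5.83 (limma, adjusted p = 1.11e-05). There, 6.48% of all probes tested were called higher. Il33 was higher in the striatum by 1.36 (limma, adjusted p = 0.000202), where 12.3% of all probes tested were called higher. That call rests on scaled levels alone.

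Genes whose levels ran most like each member were sought among 11807 genes above background on all arrays. For Il18, over the 6 WT arrays, they were Upb1, Pld2 and Akap9, with r from 0.997 to 0.998. For Il18bp they were Akap8, Phf21a and Ap1g2 (r from 0.983 to 0.989) by probe A_52_P577384, and Nox4, Olfr661 and Vmn1r216 (r from 0.963 to 0.971) by the other, all over 12 arrays. For Casp1 they were Csdc2, Prkab1 and Hdac4, with r from 0.962 to 0.967. Casp4 had no close match, the nearest being Adam26a, Cabyr and Olfr705 with r from 0.756 to 0.837. For Casp12 they were Ms4a4b, Elk3 and Gnb3, with r from 0.951 to 0.969. For Pycard they were Atp5e, Ndufb9 and Tesc by A_51_P438820 (r from 0.960 to 0.977) and Cox14, Sema7a and Dcbld1 by A_51_P438821 (r from 0.948 to 0.955). The arrays are 6 regions in WT and KO, and these are the highest of many correlations over few points.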

How the data were processed

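RNA of 6 mouse brain regions was measured on 12 one-colour arrays (1 per region and genotype, 5 mice pooled, 400 ng of RNA labelled). Spot intensity was deposited as Agilent Feature Extraction 9.5.3.1 scanner output, already background-subtracted and detrended, per the file headers. A table deposited by the authors gives a KO over WT ratio per probe and region, whose scaling the sources used here do not give. It lists Casp1 in 5, Casp4 in 2 and Casp12 in 3 of 6 regions, and the other members in all 6.

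Here log2 processed signal minus the 75th percentile of each array (43379 gene spots) was used. Control spots and scanner outliers (61 to 143 per array) were left out, no spot was saturated, and the spots of a probe were averaged. Probes well above background on at least 6 of 12 arrays were tested (30969 probes; all 8 member probes passed, on 12 of 12 arrays). limma 3.58.1 in R 4.3.3 fitted genotype with region as a block, and each region against the mean of the other 5 with genotype as covariate. Thresholds were an adjusted p of 0.05 and, for regions, also a log2 difference of 1. The pathway list used the brightest probe of a gene. Exact sign-flip permutation tests were two-sided. The fits were tested on simulated data.

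Probes were named through RefSeq accessions; 22951 of 41174 gene probes (55.7%) matched. All 6 members matched a RefSeq promoter window. The array design names the mm7 build, so no probe coordinates are printed, and chromosome and gene order come from RefSeq GRCm38.p6. Named genes are every member, pathway genes past the threshold or largest in their sub-list, and the 3 genes most like each member probe; S100a9, the region calls of Il33 and Tbx21, and the pathway genes below background were named after their values were seen. Alternatives were median scaling, quantile normalization, normexp background (offset 50), other filters on dim probes, limma's trend and robust options, no region block, each region left out, the arrays without amygdala WT, and, added after seeing the data, the spot's median pixel minus local background. The files hold no mean spot signal, so normexp used the median signal. Members and lists were chosen with earlier results of these data known. The number of arrays limits the precision.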

Additional observations from a re-analysis of the deposited data

Results flagged for a closer look

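For each of the 8 probes, 2 sets of 6 values were checked for 1 region standing apart from the other 5: the KO minus WT differences and the levels. In 4 of 16 sets the gap of 1 region to its nearest neighbour exceeded Dixon's critical value, which chance gives in about 1 in 20 sets. The WT level of Il18 was high in the striatum, at 1.12, with the others between 0.57 and 0.75. The KO minus WT difference of Il18bp probe A_52_P577386 was 0.25 in the striatum and below 0 in the other 5 regions, the nearest being -0.11. The Casp4 difference was -1.61 in the hypothalamus, where the nearest other region, the striatum, was at -0.24. The difference of Pycard probe A_51_P438821 was -0.10 in the olfactory bulb and above 0 in the other 5 regions, the nearest being 0.087. No difference between regions in the KO effect could be tested, since each region had 1 array per genotype.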

How the results depend on the processing

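Il18 was lower in KO and past the threshold under all alternatives run, with a difference between -4.48 and -3.13. The number of member probes past the genotype threshold was 1, and 2 with normexp, which added Il18bp probe A_52_P577384. The number of pathway genes past it was 0, and 3 with normexp (Nek7, Mefv and Naip5), 1 when probes had to be above background on all 12 arrays and 1 with limma's trend and robust options (Nek7 in both). The count over all probes was the least settled: 14 as reported, 2231 with normexp, 810 with the filter on all 12 arrays, 963 with the trend and robust options, 2 with no region block, and 1 to 10 when each region was left out in turn (4 without olfactory bulb, 2 without prefrontal cortex, 10 without striatum, 3 without amygdala, 2 without hippocampus, 1 without hypothalamus). The difference of Pycard probe A_51_P438820, 0.00037 as reported, turned to -0.048 with normexp, -0.032 without striatum, -0.0070 without amygdala and -0.014 without hypothalamus, with a range of -0.032 to 0.026 when each region was left out, and none of these passed. The cause of these shifts was not tested. Of the 42 region comparisons, 3 were called as reported and 2 to 4 under the alternatives. The labels carry no replicate numbers; WT and KO were paired by region, as the block of the fit and in the sign-flip test. Signal over background limits the KO values of Il18 and the low values of Casp4. The sizes of both moved when the pixel summary and the background treatment were changed together, and normexp also added its offset of 50 units.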
